A study of Mus musculus with 22 samples.

Results

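The genes described here encode the enzymes that write and erase methylation on lysines 4 and 27 of histone H3 (H3K4 and H3K27), together with the subunits of their complexes. They are 32 of the 33641 gene symbols in the RNA tables, taken by name from the KMT2 (COMPASS) family, Polycomb repressive complex 2 (PRC2) and the demethylases. No threshold on a measured value picked them, but they were chosen with earlier results of these data known. RNA was measured in LSK cells, bone marrow cells sorted as lacking lineage markers and bearing Sca-1 and Kit, a gate that includes hematopoietic stem cells and multipotent progenitors. The 12 RNA libraries came from C57BL/6 mice of 4 genotypes with 3 libraries each: wild type (WT), Chd8-/- (Chd8 KO), P53-/- (P53 KO) and Chd8-/-P53-/- (DKO). All mice, WT included, are labelled with the same pI:pC injection to start deletion, and cells were sorted 6 days after it. pI:pC is a synthetic double-stranded RNA that sets off an interferon response and so switches on interferon-driven Cre alleles; the Cre line was not given in the sources used here. The labels do not say that replicates came from separate mice, so p-values here reflect the spread of these samples alone, which may be technical.

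The KMT2 and SET1 proteins add methyl groups to H3K4 at promoters and enhancers, and they work only when joined to a shared core of WDR5, RBBP5, ASH2L and DPY30. PRC2 places the opposing mark on H3K27 through EZH2 or EZH1, held by EED and SUZ12, and accessory subunits direct it to its sites. KDM5, KDM1 and KDM6 proteins remove these marks. In mouse, KMT2A and PRC2 are both needed to keep blood stem cells in balance. CHD8, an ATP-dependent chromatin remodeler, has been reported to associate with WDR5, ASH2L and RBBP5 in human cells, which makes the core subunits a natural place to look after its loss.

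The levels of the deleted genes followed the labels. Chd8 measured 48.2 to 73.9 TPM in WT and P53 KO libraries, against 26.2 to 35.6 TPM in Chd8 KO and 34.8 to 44.4 TPM in DKO, and Trp53 measured 230 to 268 TPM where intact and 16.1 to 24.3 TPM where deleted. TPM is a transcript abundance corrected for transcript length and scaled to the same total in each library, so levels can be set beside each other between genes, and depth is unknown. P53 KO replicates 1 and 2, called the second run here, carry another run number than the other 10 libraries, the first run, and their mitochondrial transcripts made up 2.12% and 1.90% of TPM against 5.33% to 6.97% elsewhere. The 4 Y-linked genes measured here summed to 94.2 to 116 TPM in Chd8 KO and 1.80 to 2.03 TPM in DKO, so in that comparison genotype cannot be told apart from what sets the Y-linked level. In WT it was 126, 113 and 1.16 TPM, and in P53 KO it was 0.738, 50.1 and 1.35 TPM. The 17 markers of the LSK gate and stem cells summed to 1565 to 1838 TPM in WT and 1959 to 2177 TPM in Chd8 KO, and each was above 1 TPM in at least 1 library of each genotype. Markers of other cell types were present too, with B cell genes at 174 to 500 TPM and endothelial and stromal genes at 86.1 to 113 TPM in WT, although Ms4a1, Ly6g and Pdgfra stayed under 1 TPM in every library. Neutrophil and monocyte genes summed to 1649 TPM in WT replicate 3 and to 132 to 364 TPM in the other 11 libraries.

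All 32 genes were measured above 1 TPM in every library and all passed the filter of a mean of at least 1 TPM, so none was lost from the tests. Their median WT level was 56.5 TPM, against 22.6 TPM for the 13162 genes tested, and 29 of the 32 lay above the median tested gene. WT levels ran from 12 ± 2.60 TPM (SD, n = 3) for Phf1, an accessory PRC2 subunit, to 316 ± 10.6 TPM for Rbbp7, a histone-binding subunit that PRC2 shares with other complexes. Within PRC2, the level of Ezh2 was 6.99, 8.11 and 7.05 times that of Ezh1 in the WT libraries. Among the H3K4 methyltransferases no gene dominated, with WT means between 25 TPM for Setd1b and 44.6 TPM for Setd1a.

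**Figure D1:**
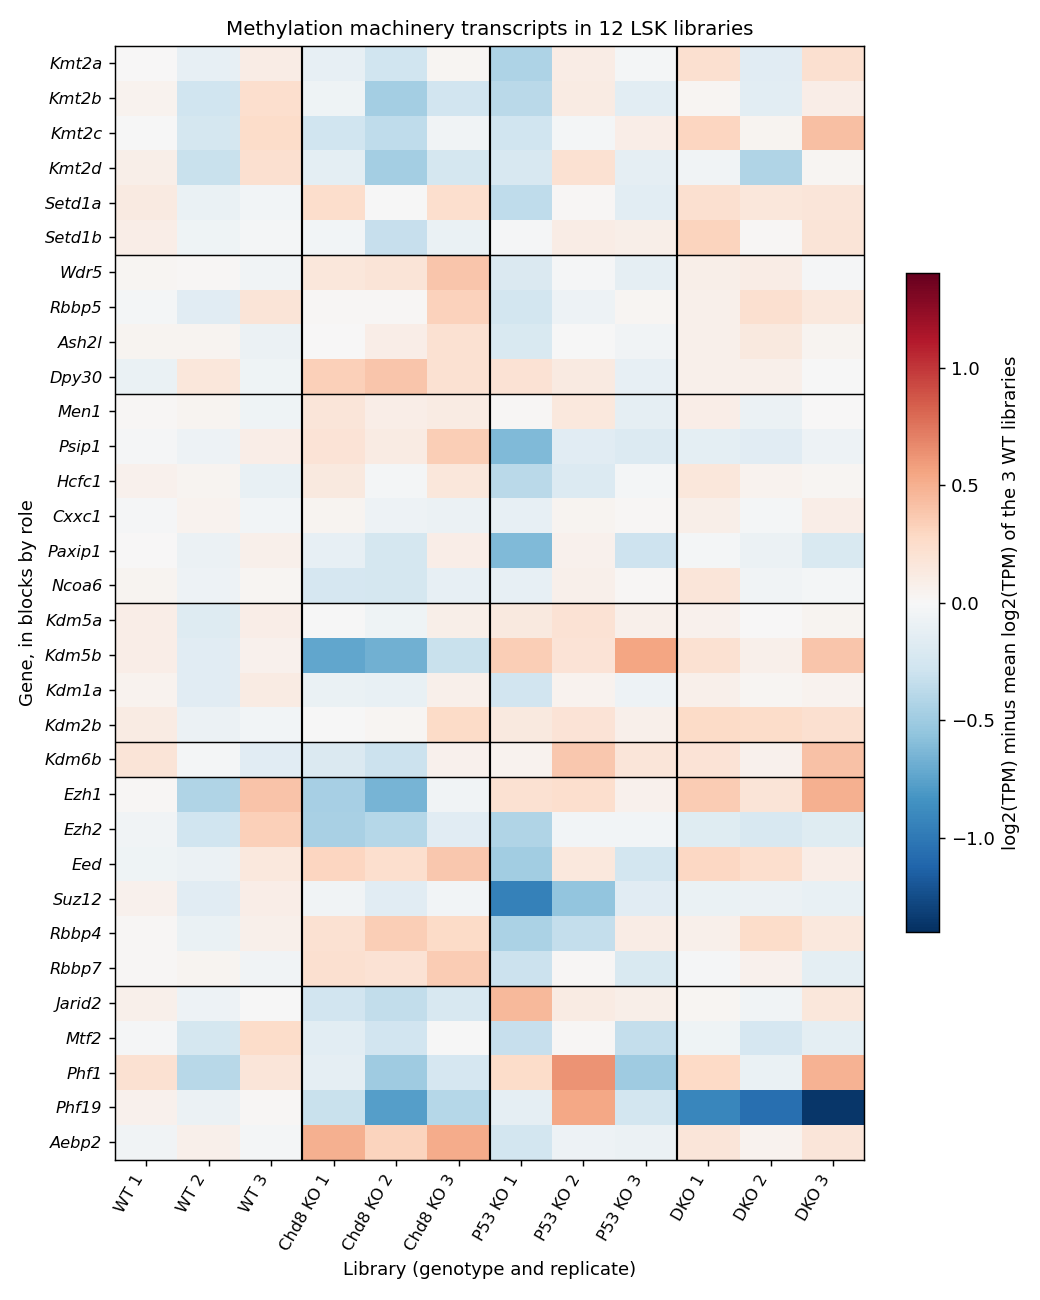
Heat map of the 32 genes (rows, in blocks by role) in the 12 libraries (columns); colour is log2(TPM) minus the mean log2(TPM) of the 3 WT libraries. Kdm5b is lower in the 3 Chd8 KO libraries, Aebp2 is higher in them, Phf19 is lower in the 3 DKO libraries, and Suz12 is lowest in P53 KO replicates 1 and 2.

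The first question was whether these genes changed when Chd8 was deleted with P53 intact. Most were not called, and those that were moved by less than 1.5-fold. Aebp2 and Dpy30 rose and Kdm5b fell in Chd8 KO against WT, which is 3 of 32 genes or 9.38%, against 16.6% of all genes tested (9.65% higher and 6.98% lower). A gene was called at a Benjamini-Hochberg adjusted p under 0.05 from limma over all 13162 genes, and each change is given as log2 of the fold in TPM + 1. No member reached 1.5-fold in either direction, where 14.9% of all genes did, and the 32 changes ran from -0.54 to 0.44 with a median of -0.06, against a median of 0.02 for all genes. At an unadjusted p under 0.05, 6 members were higher and 4 lower, against 31.4% of all genes, and the Chd8 KO and WT libraries did not overlap for 12 of 32, where they did not overlap for 37.1% of all genes.

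The H3K4 methyltransferases came first by role. Kmt2a, the homolog of the MLL gene broken in human leukemia, measured 39.6, 36.5 and 42.4 TPM in WT, 36.4, 32.5 and 40.1 TPM in Chd8 KO, 29.3, 42.3 and 38.7 TPM in P53 KO and 46.1, 35.4 and 46.0 TPM in DKO. The 4 groups overlapped, and the change in Chd8 KO against WT was -0.12 (95% interval -0.44 to 0.20, adjusted p = 0.625). Kmt2d, which methylates enhancers, measured 39.6, 30.0 and 43.7 TPM in WT, 33.9, 26.9 and 31.5 TPM in Chd8 KO, 32, 43.3 and 34.1 TPM in P53 KO and 36, 27.8 and 38.0 TPM in DKO. Its change was -0.28 (interval -0.65 to 0.10, adjusted p = 0.299), and its groups overlapped as well. Setd1a, the enzyme of the SET1 complex, measured 48.5, 41.8 and 43.5 TPM in WT, 52.9, 44.3 and 52.4 TPM in Chd8 KO, 34.9, 45.2 and 40.3 TPM in P53 KO and 52.0, 49.6 and 50.2 TPM in DKO. The change with Chd8 loss was 0.16 (interval -0.07 to 0.39, adjusted p = 0.342). It was -0.10 when only the most abundant transcript of the gene was used. Kmt2b, Kmt2c and Setd1b gave changes of -0.26, -0.22 and -0.14 in Chd8 KO. By limma 0 of the 6 methyltransferases were called in any of the 6 contrasts as fitted, where 0.182% to 16.6% of all genes were called. At such shares, 6 genes would give few calls. In Chd8 KO against WT 0 had an unadjusted p under 0.05, against 31.4% of all genes. At that unadjusted level Kmt2c and Setd1b were higher in DKO against Chd8 KO and Setd1a in DKO against P53 KO, and Kmt2c was lower in the interaction. Kmt2c was past the threshold in DKO against Chd8 KO in 4 of 25 alternatives (0.40 to 0.46, adjusted p = 0.0306 to 0.0492) and Setd1a in DKO against P53 KO in 4 (0.33 to 0.42, adjusted p = 0.0298 to 0.0488).

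The shared core is where CHD8's reported partners lie. Wdr5, the subunit that docks onto the methyltransferase, measured 89.3, 88.2 and 84.7 TPM in WT, 97.6, 99.3 and 114 TPM in Chd8 KO, 76.1, 86.2 and 80.2 TPM in P53 KO and 92.8, 93.6 and 86.6 TPM in DKO. Every Chd8 KO library lay above every other library, and the change against WT was 0.24 (interval 0.07 to 0.41, adjusted p = 0.0515), just outside the threshold. It passed when any one of the P53 KO libraries was left out (adjusted p = 0.0466 to 0.0493). Rbbp5, a scaffold of the core, measured 43.7, 40.0 and 50.4 TPM in WT, 45.1, 45.2 and 55.9 TPM in Chd8 KO, 37.3, 42.4 and 45.3 TPM in P53 KO and 46.9, 52.1 and 49.3 TPM in DKO, with a change of 0.12 in Chd8 KO (interval -0.13 to 0.37, adjusted p = 0.520). Ash2l, which with RBBP5 activates the methyltransferase, measured 72.4, 72.3 and 66.7 TPM in WT, 70.8, 75.3 and 81.7 TPM in Chd8 KO, 60.7, 70.3 and 68.3 TPM in P53 KO and 74.1, 77.5 and 72.2 TPM in DKO. Ash2l changed by 0.11 between WT and Chd8 KO (interval -0.07 to 0.28, adjusted p = 0.391), and the libraries overlapped. The upper ends of all 3 intervals lay below 1.5-fold.

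Dpy30, the small subunit that binds ASH2L, was the called member of the core. It lies on chromosome 17 (74299474 to 74323944, GRCm38.p6) and measured 105, 126 and 108 TPM in WT, 142, 147 and 130 TPM in Chd8 KO, 130, 123 and 104 TPM in P53 KO and 119, 118 and 112 TPM in DKO. The Chd8 KO libraries were the 3 highest, with P53 KO replicate 1 close beneath the lowest of them. The rise was 0.31 (interval 0.10 to 0.52, adjusted p = 0.0489). The call was lost in 14 of 25 alternatives, among them the fits without WT replicate 1 (adjusted p = 0.155) or 3 (0.133) and without any one of the Chd8 KO libraries (0.0602 to 0.152). The summed level of the 4 core genes was 309 to 326 TPM in WT, 355 to 382 TPM in Chd8 KO, 298 to 321 TPM in P53 KO and 320 to 341 TPM in DKO. Chd8 KO thus stood apart from the other groups in this sum, which is given as a description.

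The subunits that belong to particular H3K4 complexes were not called. Men1, which ties KMT2A and KMT2B to chromatin with PSIP1, changed by 0.12 in Chd8 KO, and Psip1 by 0.22, while Hcfc1, a subunit shared by the SET1 and KMT2A complexes, stood at 0.09. Cxxc1, the CpG-binding subunit of the SET1 complexes, stood at -0.04, and Paxip1 and Ncoa6, of the KMT2C and KMT2D complexes, at -0.09 and -0.19. None of the 6 was called by limma in any contrast as fitted, where 0.182% to 16.6% of all genes were called. In Chd8 KO against WT 1 of them, Ncoa6, had an unadjusted p under 0.05 and was lower (-0.19), against 31.4% of all genes. At that level Psip1 was lower in P53 KO against WT and in DKO against Chd8 KO, Ncoa6 higher in DKO against Chd8 KO and Hcfc1 higher in DKO against P53 KO. Psip1 was past the threshold in DKO against Chd8 KO in 4 of 25 alternatives, among them median-of-ratios scaling (-0.40, adjusted p = 0.0164), and Hcfc1 in DKO against P53 KO in 2, among them the fit without P53 KO replicate 3 (0.36, adjusted p = 0.0163). The latter fit keeps only the second run in P53 KO.

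Among the demethylases, Kdm5b stood out. KDM5B (JARID1B) removes methyl groups from H3K4, and its gene lies on chromosome 1 (134560178 to 134632878, GRCm38.p6). Kdm5b measured 25.4, 21.4 and 24.8 TPM in WT, 14.4, 14.9 and 19.2 TPM in Chd8 KO, 30.2, 27.2 and 34.7 TPM in P53 KO and 27.6, 25 and 31.1 TPM in DKO. The 3 Chd8 KO libraries were the 3 lowest of the 12, and the P53 KO libraries lay above all WT libraries. Kdm5b fell by 0.54 in Chd8 KO against WT (interval -0.84 to -0.24, adjusted p = 0.0212). It held under every change of pseudocount, filter, scaling or covariate tried, but was not past the threshold without WT replicate 1 (adjusted p = 0.0760) or 3 (0.0617) or without Chd8 KO replicate 1 (0.0844) or 2 (0.0767). Its paralog Kdm5a measured 44.7 ± 4.75 TPM in WT and 44.6 ± 2.22 TPM in Chd8 KO, a change of 0.00 (adjusted p = 0.997). The level of Kdm5a over Kdm5b was therefore 1.84 to 1.92 in WT and 2.45 to 3.07 in Chd8 KO, against 1.35 to 1.89 in P53 KO and 1.47 to 1.79 in DKO. Kdm1a (LSD1) and Kdm2b, which joins a PRC1 complex to CpG islands, changed by -0.04 and 0.09, and Kdm6b, the H3K27 demethylase among the 32, by -0.14 (adjusted p = 0.532). The 250 bases upstream of the RefSeq start of Kdm5b are shown because this gene moved in opposite directions in 2 comparisons. They lie on the plus strand at chr1:134559928-134560177 (GRCm38.p6), and capitals mark the GC box GGGCGG.
Kdm5b: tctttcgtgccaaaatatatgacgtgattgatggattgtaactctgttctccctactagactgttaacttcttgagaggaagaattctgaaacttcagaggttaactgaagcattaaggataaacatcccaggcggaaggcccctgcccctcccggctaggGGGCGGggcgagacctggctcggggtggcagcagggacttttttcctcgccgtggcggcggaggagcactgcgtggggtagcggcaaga

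PRC2 was followed from its catalytic core outward. Ezh2, the main enzyme in dividing cells, measured 166, 142 and 217 TPM in WT, 125, 131 and 155 TPM in Chd8 KO, 129, 167 and 168 TPM in P53 KO and 153, 148 and 153 TPM in DKO. WT spanned a wide range that overlapped Chd8 KO, and the change was -0.33 (interval -0.67 to 0.00, adjusted p = 0.160). Ezh1, the paralog that predominates in resting cells, measured 23.7, 17.5 and 30.8 TPM in WT, 16.9, 14.9 and 22.5 TPM in Chd8 KO, 27.2, 27.4 and 24.3 TPM in P53 KO and 29.8, 26.5 and 32.9 TPM in DKO. Ezh1 changed by -0.37 between WT and Chd8 KO (interval -0.80 to 0.05, adjusted p = 0.217). Eed, which reads the H3K27 mark, measured 94.6, 93.5 and 109 TPM in WT, 122, 116 and 129 TPM in Chd8 KO, 70.6, 110 and 82.5 TPM in P53 KO and 121, 116 and 106 TPM in DKO. Chd8 KO lay above WT in all 3 libraries, with a change of 0.30 (interval 0.00 to 0.60, adjusted p = 0.158). Suz12, the scaffold of PRC2, stood at 79.4, 68.4 and 81.5 TPM in WT libraries and 73.9, 68.3 and 73.9 TPM in those of Chd8 KO, with a change of -0.08 (adjusted p = 0.767). Rbbp4 and Rbbp7, histone chaperones of PRC2 and other complexes, changed by 0.27 (adjusted p = 0.152) and 0.26 (adjusted p = 0.0659), with no overlap with WT. The core thus gave 0 of 6 calls by limma, where 16.6% of all genes were called. Eed, Rbbp4 and Rbbp7 each had an unadjusted p under 0.05 in the upward direction, against 31.4% of all genes in either direction. Each of these 3 was past the threshold when only the libraries of the first run were fitted, at adjusted p = 0.0297 for Eed, 0.0243 for Rbbp4 and 0.0279 for Rbbp7.

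Aebp2 carried the firmest change of the 32 in Chd8 KO. AEBP2 is a zinc finger subunit that, with JARID2, defines the PRC2.2 form of the complex, and its gene lies on chromosome 6 (140622454 to 140678472, GRCm38.p6). Aebp2 measured 72.0, 78.1 and 73.3 TPM in WT, 105, 92.6 and 107 TPM in Chd8 KO, 62.1, 70.9 and 70.4 TPM in P53 KO and 83.5, 77.3 and 83.6 TPM in DKO. The Chd8 KO libraries were the 3 highest, and the P53 KO libraries the 3 lowest. Aebp2 rose by 0.44 in Chd8 KO against WT (interval 0.27 to 0.61, adjusted p = 0.00451) and was called in all 25 alternatives, with changes between 0.40 and 0.50 when each library was left out in turn. Its partner Jarid2 went from 26.4 ± 1.31 to 21.8 ± 0.891 TPM, a change of -0.27 that was not called (adjusted p = 0.103), with no overlap between the groups. Jarid2 was past the threshold in the first run alone (adjusted p = 0.0399) and without P53 KO replicate 1 (0.0438). The PRC2.1 subunits Mtf2, Phf1 and Phf19, which recognise methylated H3K36 or CpG-rich DNA, stood at -0.14, -0.27 and -0.46 (adjusted p = 0.134 for Phf19, which was past the threshold at 0.0420 when only its most abundant transcript was used). RefSeq lists 3 starts for Aebp2, and the 250 bases upstream of the start with the most CG pairs are shown because this gene was called in 3 comparisons. They lie on the plus strand at chr6:140624659-140624908 (GRCm38.p6), and capitals mark 3 GC boxes, GGGCGG or its reverse complement CCGCCC.
Aebp2: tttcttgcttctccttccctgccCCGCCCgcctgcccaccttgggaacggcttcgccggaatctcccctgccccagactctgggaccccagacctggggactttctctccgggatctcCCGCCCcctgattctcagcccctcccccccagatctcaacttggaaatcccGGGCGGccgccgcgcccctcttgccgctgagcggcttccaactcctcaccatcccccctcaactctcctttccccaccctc

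**Figure D2:**
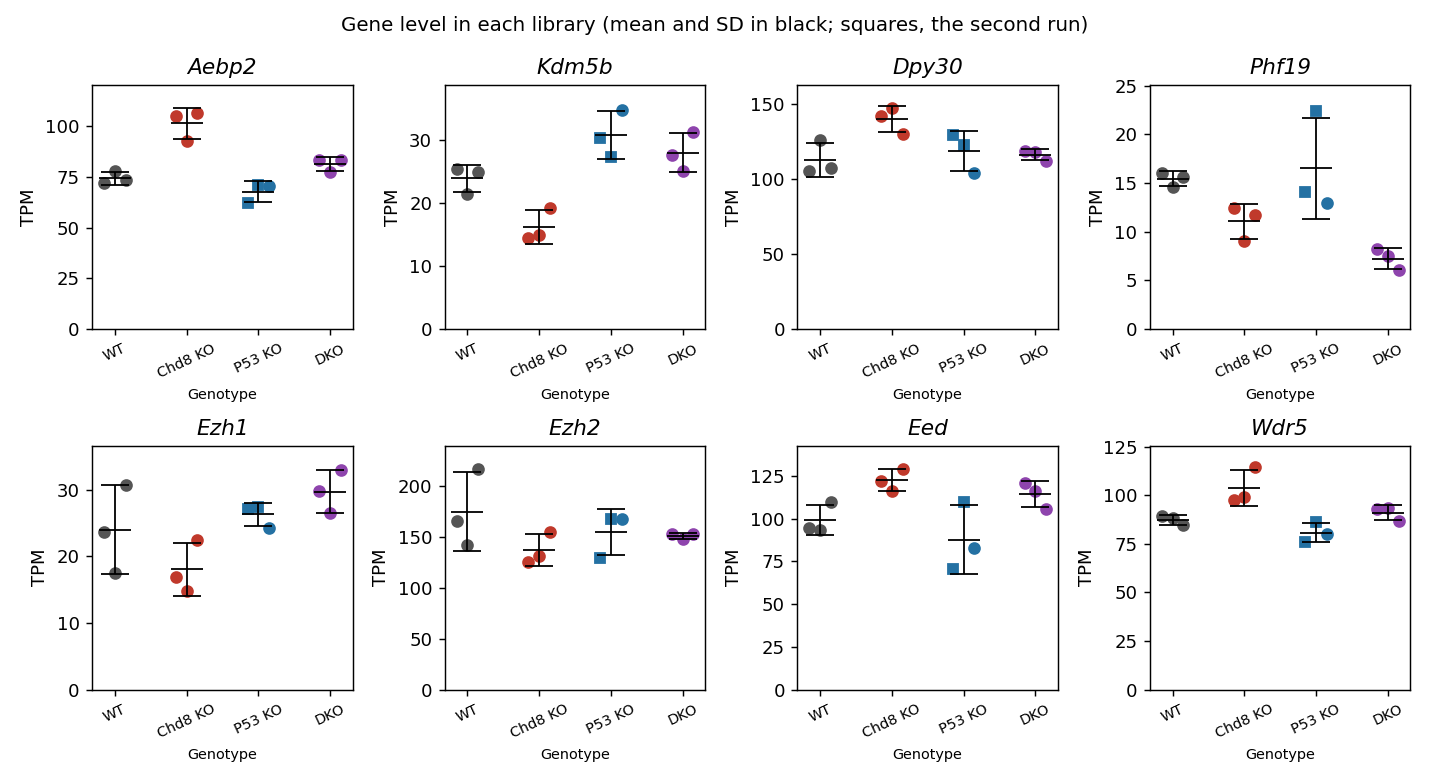
TPM of 8 genes in each library by genotype, with the group mean and SD (n = 3) in black and P53 KO replicates 1 and 2 (the second run) as squares. Aebp2 is at least 92.6 TPM in each Chd8 KO library and at most 83.6 TPM elsewhere, and Phf19 is at most 8.19 TPM in each DKO library and at least 9.01 TPM elsewhere.

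Deletion of P53 alone gave no call among the 32. The background was low, since 0.182% of all genes were called, and by limma an unadjusted p under 0.05 was reached by 1 member upward and 2 downward, against 14.7% of all genes. Suz12 had the lowest change, with 39.4, 51.8 and 68.4 TPM in P53 KO, against 68.4 to 81.5 TPM in WT and 71.2 to 72.0 TPM in DKO, a change of -0.55 (interval -0.89 to -0.20, adjusted p = 0.217). The 2 low values were those of the second run, and the library of the first run lay level with the lowest WT library. Without P53 KO replicate 3, which leaves only the second run in that group, Suz12 was called at -0.74 (adjusted p = 0.00493) and Rbbp4 at -0.38 (adjusted p = 0.0164), so there genotype and run cannot be told apart. Calls over all genes in that fit were 418 higher and 835 lower, against 10 and 14 with every library. Kdm5b was at 0.35 (adjusted p = 0.289) and Psip1 at -0.32 (adjusted p = 0.262), and neither was called. The groups did not overlap for 5 of 32 members and for 13% of all genes.

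When both genes were deleted, Phf19 was the member that fell against WT. PHF19 is an accessory PRC2 subunit with a Tudor domain that binds methylated H3K36, and its gene lies on chromosome 2 (34893752 to 34914353, GRCm38.p6). Phf19 measured 16.1, 14.6 and 15.7 TPM in WT, 12.4, 9.01 and 11.7 TPM in Chd8 KO, 14.1, 22.4 and 13 TPM in P53 KO and 8.19, 7.44 and 6.03 TPM in DKO. The 3 DKO libraries were the lowest of the 12, the 3 Chd8 KO libraries came next, and the P53 KO libraries were spread around WT. The fall was 1.01 on the log2 scale, from 15.4 ± 0.741 to 7.22 ± 1.10 TPM (interval -1.44 to -0.58, adjusted p = 0.0146). That is 1 of 32 members or 3.12%, against 5.23% of all genes, and 3 of 32 members had groups that did not overlap, against 31.2% of all genes. The call was lost without WT replicate 1 (adjusted p = 0.0536), without DKO replicate 3 (0.0679) and when the Y-linked level was a covariate (-0.82, adjusted p = 0.0840). The 250 bases upstream of a RefSeq start inside the Phf19 span are shown because Phf19 had the largest change of any member. These bases are themselves within that span. They lie on the minus strand at chr2:34913977-34914226 (GRCm38.p6), and capitals mark 1 E2F-type element and the GC boxes, 4 in all, 3 of which overlap by a base.
Phf19: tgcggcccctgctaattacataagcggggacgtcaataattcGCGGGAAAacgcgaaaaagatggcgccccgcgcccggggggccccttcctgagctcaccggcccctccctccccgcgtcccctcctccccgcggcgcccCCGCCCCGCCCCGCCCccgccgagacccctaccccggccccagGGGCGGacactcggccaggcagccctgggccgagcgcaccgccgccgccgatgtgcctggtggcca

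Windows of this kind were found in the RefSeq table for 25 of the 32 members. The E2F elements searched for were TTTCCCGC, TTTGGCGC, TTTCGCGC and TTTGCCGC on both strands, and 2 of 25 member windows held one (Phf19 and Suz12), against 1.95% of 27025 genes. Where RefSeq lists several starts, for members and for all genes alike, the window with the most CG pairs was taken, a choice that favours GC-rich letters. A CHR element, TTTGAA or TTCGAA, was in 2 of 25 (Eed and Suz12) against 17.1% of all genes, and the GC box in 17 of 25 against 34.4% (32.7% of all 32851 windows). The p53 decamer was in 0 of 25 member windows and in 7.10% of those of all genes. These are letter matches in the 250 bases upstream of a start, with no measurement of binding.

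The loss of Chd8 in cells that also lacked P53 was read from DKO against P53 KO. Phf19 fell by 1.06 (interval -1.49 to -0.63, adjusted p = 0.00829) and Aebp2 rose by 0.26 (interval 0.09 to 0.44, adjusted p = 0.0468), which is 2 of 32 members or 6.25%, against 14.9% of all genes. The groups did not overlap for 10 of 32 members and for 35.3% of all genes. The median of all genes was itself shifted by 0.11 in this contrast. Under median-of-ratios scaling, which removes the shift, the changes were -1.17 for Phf19 and 0.14 for Aebp2 (adjusted p = 0.250). Kdm5a, not called as fitted, was past the limma threshold under that scaling (-0.22, adjusted p = 0.0474) and under quantile normalization (-0.22, adjusted p = 0.0448). Within the first run, where P53 KO has 1 library, Phf19 stood at -0.77 (adjusted p = 0.0907) and Aebp2 at 0.21 (adjusted p = 0.280), and neither was called. The Aebp2 call was absent in 19 of 25 alternatives. Suz12, Eed, Rbbp4 and Setd1a had changes of 0.45, 0.40, 0.38 and 0.33 with adjusted p from 0.0543 to 0.0718, and none of the 4 was called. Each was past the threshold in some alternatives. Without P53 KO replicate 3 these were Suz12 (0.65, adjusted p = 0.00345) and Rbbp4 (0.54, adjusted p = 0.00140), and without P53 KO replicate 2 they were Eed (0.57, adjusted p = 0.0134) and Setd1a (0.42, adjusted p = 0.0376). The fit without replicate 3 keeps only the second run in P53 KO, and gave 2224 higher and 865 lower over all genes, against 1471 and 486 with every library. In P53 KO, Rbbp4 measured 147 and 159 TPM in the libraries of the second run and 215 TPM in the library of the first run.

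Whether the response to Chd8 loss differed with P53 was asked by the interaction, the change in Chd8 KO against WT minus the change in DKO against P53 KO. By limma 0 of 32 members were called, against 1.8% of all genes, and an unadjusted p under 0.05 was reached by 1 upward and 2 downward, against 19.5% of all genes. The interaction was -0.41 for Kdm5b (interval -0.83 to 0.01, adjusted p = 0.268), 0.60 for Phf19 (interval 0.00 to 1.21, adjusted p = 0.259) and 0.18 for Aebp2 (interval -0.07 to 0.42, adjusted p = 0.393). Without P53 KO replicate 3, Suz12 (-0.73, adjusted p = 0.0153) and Dpy30 (0.42, adjusted p = 0.0436) were called. In that fit P53 KO holds only the second run, so genotype and run cannot be told apart. Its calls over all genes were 567 higher and 995 lower, against 110 and 127 with every library. A call with P53 and none without it, as for Kdm5b, was thus not shown to be a difference between the backgrounds.

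**Figure D3:**
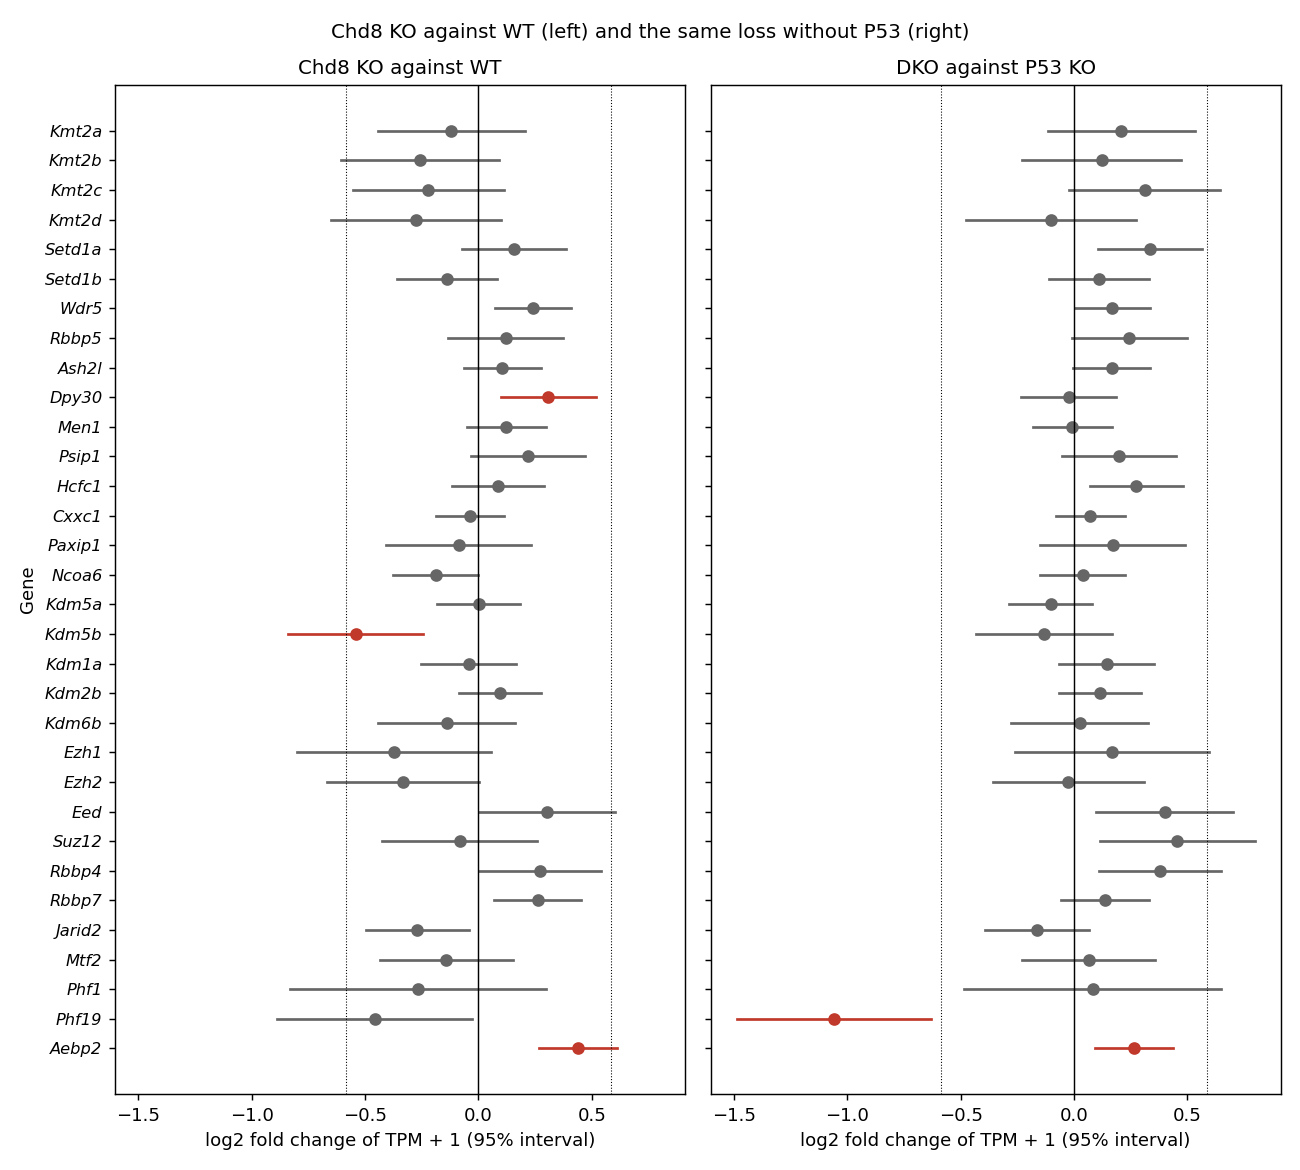
Log2 fold change of TPM + 1 with its 95% interval for each of the 32 genes, in Chd8 KO against WT (left) and DKO against P53 KO (right); red marks genes called at an adjusted p under 0.05, and dotted lines mark 1.5-fold. On the left Dpy30, Kdm5b and Aebp2 are red within the dotted lines, and on the right Aebp2 and Phf19 are red, with Phf19 at -1.06.

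DKO was also set against Chd8 KO, to show what differs when P53 is removed as well. Kdm5b rose by 0.76 (interval 0.46 to 1.06, adjusted p = 0.00711), Ezh1 rose by 0.70 (interval 0.27 to 1.13, adjusted p = 0.0437) and Aebp2 fell by 0.31 (interval -0.48 to -0.14, adjusted p = 0.0308). That is 3 of 32 members or 9.38%, against 10.5% of all genes, and groups did not overlap for 15 of 32 members and for 41.9% of all genes. The 2 rises were the members past 1.5-fold, where 14.7% of all genes were. Kdm5b was called in every alternative other than the Y-linked covariate (0.62, adjusted p = 0.202), with which no member was called, by limma, in this contrast. The Y-linked level separates these groups, and with that covariate calls over all genes went from 832 higher and 554 lower to 90 and 95. This loss of calls was thus not particular to the members. Ezh1 lost its call in 12 alternatives, including the fits without Chd8 KO replicate 1 (adjusted p = 0.136) or 2 (0.147) and without DKO replicate 1 (0.118), 2 (0.0668) or 3 (0.150). Aebp2 lost its call in 7, including those without Chd8 KO replicate 1 (0.119) or 3 (0.0926) and without DKO replicate 1 (0.0780), 2 (0.0972) or 3 (0.0789). The Chd8 KO libraries serve both this comparison and that against WT, so the values of a gene in the 2 comparisons are not independent of each other. Phf19, Psip1, Rbbp7, Kmt2c, Jarid2, Dpy30 and Wdr5 were not called in this comparison but were past the threshold in 1 to 5 of the alternatives. The level of Ezh2 over Ezh1 was 6.87 to 8.80 in Chd8 KO and 4.63 to 5.58 in DKO, with 6.99 to 8.11 in WT and 4.74 to 6.91 in P53 KO.

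Because the tables list transcripts, the same fit was run on the 154 member transcripts with a mean of at least 1 TPM, among 38181 tested. The 19 alternatives for transcripts did not include run or the Y-linked level as a covariate, so transcript calls were not tried with either. The clearest case was Eed, whose transcript ENSMUST00000107234.2 held 49.1% of the gene's TPM over all libraries. It measured 43.0, 44.9 and 38.6 TPM in WT, 70.9, 68.3 and 73.4 TPM in Chd8 KO, 29.8, 35.5 and 41.7 TPM in P53 KO and 57.2, 61.6 and 58.5 TPM in DKO. Both groups that lack Chd8 lay above both groups that have it, without overlap. The transcript rose by 0.74 in Chd8 KO against WT (interval 0.49 to 0.99, adjusted p = 0.00531), called in all 19 alternatives, and DKO exceeded P53 KO by 0.73 (adjusted p = 0.0103), called in 16 of 19 and lost in the first run alone, without DKO replicate 2 and under median-of-ratios scaling (0.58, adjusted p = 0.0712). It made up 42.9% ± 6.76 of Eed in WT and 58.0% ± 0.942 in Chd8 KO (SD, n = 3), without overlap, and 41.7% ± 9.10 in P53 KO and 51.9% ± 4.12 in DKO, where the libraries overlapped.

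In Chd8 KO against WT, 3 of 154 member transcripts were called or 1.95%, against 4.31% of all transcripts. Besides that of Eed they were Aebp2 ENSMUST00000087614.10 (0.49, adjusted p = 0.0390), called in 9 of 19 alternatives, and Kdm5b ENSMUST00000112198.2, which held 67.9% of its gene (-0.59, adjusted p = 0.0293) and was called in 13, not under median-of-ratios scaling or without WT replicate 1 or 3, Chd8 KO replicate 1 or 2 or DKO replicate 1. In P53 KO against WT 0 member transcripts were called by limma, against 0.105% of all, while 7 reached an unadjusted p under 0.05 upward and 16 downward, against 13.7% of all. In DKO against WT 2 were called, against 0.93% of all, namely Phf19 ENSMUST00000028232.6 (-0.98, adjusted p = 0.0134) and Ezh2 ENSMUST00000081721.12 (-0.47, adjusted p = 0.0486). That Ezh2 transcript stood at 50.4, 53.5 and 53 TPM in the WT libraries and 37.7, 40.3 and 34.7 TPM in DKO, with no overlap, but was called in 4 of 19 alternatives. It stood at 40.3 to 43.7 TPM in Chd8 KO and 32.6 to 40.2 TPM in P53 KO. Both groups also lay beneath every WT library, so the lower level was not particular to DKO. In DKO against Chd8 KO 1 was called, against 2.15% of all, the same Kdm5b transcript (0.81, adjusted p = 0.0119).

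In DKO against P53 KO 5 member transcripts were called, against 4.03% of all transcripts. They were the Eed and Phf19 transcripts named above (Phf19 at -0.92, adjusted p = 0.0129), Hcfc1 ENSMUST00000114372.2 (0.60, adjusted p = 0.0252) and 2 of Mtf2, ENSMUST00000134026.7 (-2.56, adjusted p = 0.0263) and ENSMUST00000131291.7 (-0.72, adjusted p = 0.0422). The first Mtf2 transcript measured 13.7 and 22.2 TPM in the libraries of the second run and 0.463 to 6.45 TPM in the other 10, and within the first run no member transcript was called by limma in this contrast. The interaction gave 0 calls by limma, against 0.437% of all transcripts, while 10 reached an unadjusted p under 0.05 upward and 8 downward, against 15.3% of all.

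**Figure D4:**
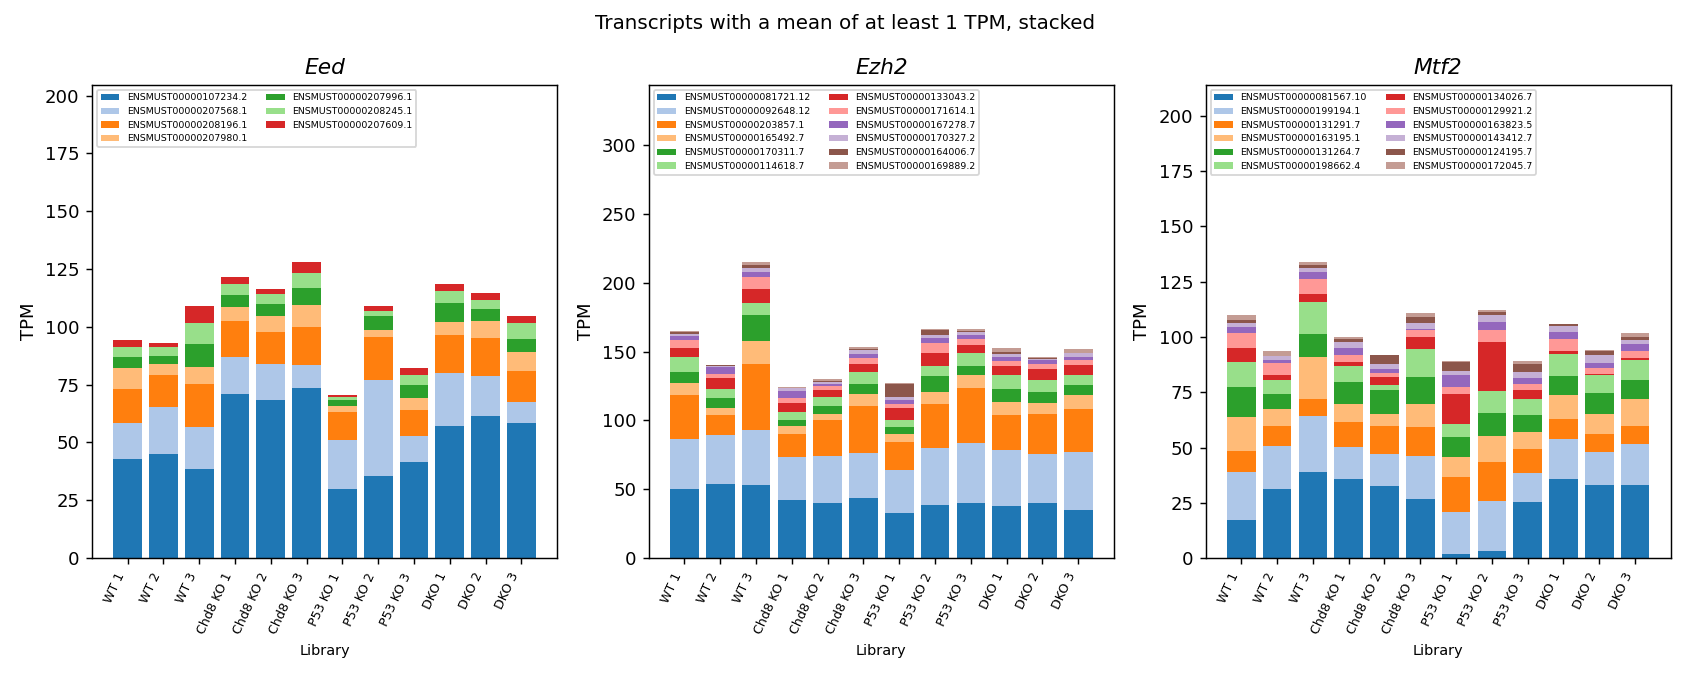
Stacked TPM of the transcripts of Eed, Ezh2 and Mtf2 with a mean of at least 1 TPM, in each library; each colour is 1 transcript. The Eed transcript ENSMUST00000107234.2 reaches 68.3 to 73.4 TPM in Chd8 KO against 38.6 to 44.9 TPM in WT, and the Mtf2 transcript ENSMUST00000081567.10 is at 1.97 and 3.09 TPM in P53 KO replicates 1 and 2.

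Other genes of the same pathways were counted from lists. The 19 tested genes among 20 other H3K4 methylation genes had a median change of -0.03 in Chd8 KO against WT. This list had no call by limma in P53 KO or DKO against WT, 1 fall in DKO against Chd8 KO (Bod1, -0.38, adjusted p = 0.0353) and 1 rise in DKO against P53 KO (Kdm1b, LSD2, 0.55, adjusted p = 0.0380).

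Of 10 tested genes among 12 other H3K27 demethylase, PRC2 and PR-DUB genes, 1 rose and 1 fell in Chd8 KO against WT, where 9.65% of all genes rose and 6.98% fell. Asxl1, which activates the deubiquitinase BAP1 and is often mutated in human myeloid disease, went from 50.2, 48.5 and 49.5 TPM in WT to 36.9, 37.4 and 40.1 TPM in Chd8 KO, a fall of 0.37 (adjusted p = 0.0109). Epop, a PRC2-associated protein that links it to elongin, went from 12.5, 13.7 and 9.98 TPM to 17.9, 18.1 and 16.7 TPM, a rise of 0.52 (adjusted p = 0.0312). No gene of the list was called by limma in P53 KO against WT, DKO against WT or DKO against P53 KO. In DKO against Chd8 KO, Kdm6a, the X-linked H3K27 demethylase, rose by 1.05 (adjusted p = 0.0335) and its Y-linked homolog Uty fell by 3.20 (adjusted p = 0.0331).

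Kdm6a was lowest in WT replicates 1 and 2 and in Chd8 KO, the libraries with the highest Y-linked sums. It measured 18, 14.9 and 38.2 TPM in WT, 15.5, 14.7 and 16.7 TPM in Chd8 KO, 22.1, 22.7 and 30.5 TPM in P53 KO and 33.9, 30.6 and 36.1 TPM in DKO, while Uty measured 13.2, 12.4 and 0.228 TPM in WT, 11, 12.4 and 14.1 TPM in Chd8 KO, 0.120, 3.77 and 0.523 TPM in P53 KO and 0.360 to 0.596 TPM in DKO. The highest Kdm6a value in WT was in replicate 3, which had the lowest Uty value. The 2 summed to 26.5 to 30.8 TPM in Chd8 KO, 31.0 to 36.7 TPM in DKO, 27.3 to 38.4 TPM in WT and 22.2 to 31.0 TPM in P53 KO. Kdm5c and its Y-linked homolog Kdm5d, H3K4 demethylases, together gave 62.0 to 66.1 TPM in Chd8 KO and 59.9 to 61.9 TPM in DKO.

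PRC1, the complex that ubiquitinates H2A at Polycomb targets, held the largest called change on these lists in Chd8 KO against WT. Of its 22 genes, all tested, 1 rose and 2 fell in that comparison, where 9.65% of all genes rose and 6.98% fell, with a median of -0.07. Ring1, a ubiquitin ligase of PRC1, measured 27.6, 24.6 and 26.4 TPM in WT, 13.2, 14.2 and 15.4 TPM in Chd8 KO, 30.8, 32.9 and 24.6 TPM in P53 KO and 18.5, 22.2 and 23.8 TPM in DKO. Both groups that lack Chd8 lay beneath both groups that have it. With P53 intact Ring1 fell by 0.83 on loss of Chd8 (adjusted p = 0.00182), and without P53 it fell by 0.43 (adjusted p = 0.0423). It rose by 0.56 in DKO against Chd8 KO (adjusted p = 0.0199). Yaf2, a subunit of variant PRC1, went from 17.7, 23.7 and 19.6 TPM to 30.1, 29.5 and 27.5 TPM with Chd8 loss, a rise of 0.50 (adjusted p = 0.0169). Without P53 the rise was 0.46 (adjusted p = 0.0278). Scmh1 fell by 0.49 in Chd8 KO (adjusted p = 0.0322). The list had no call by limma in P53 KO against WT, 1 rise in DKO against WT (Phc2, 0.22, adjusted p = 0.0424), 2 rises in DKO against Chd8 KO (Ring1 and Cbx2, the latter by 0.46) and 1 rise and 2 falls in DKO against P53 KO (Yaf2, Ring1 and Cbx8, the last by -0.66). Cbx8 measured 16.7 and 13.5 TPM in the P53 KO libraries of the second run, 9.62 TPM in that of the first run and 5.93 to 9.07 TPM in DKO.

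Of 15 H3K4me3 readers, all tested, 1 fell in Chd8 KO against WT (Phf2, a histone demethylase that binds H3K4me3, -0.28, adjusted p = 0.0237), where 6.98% of all genes fell. In DKO against Chd8 KO 1 rose (Kdm7a, 0.88, adjusted p = 0.0189), in DKO against P53 KO 1 fell (Ing1, -0.42, adjusted p = 0.0341), and 0 were called by limma in P53 KO or DKO against WT. Ing1 measured 80.8 and 85.4 TPM in the P53 KO libraries of the second run, 61.7 TPM in that of the first run and 54.8 to 57.1 TPM in DKO.

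Markers of other cells and states moved with genotype beside these genes. In Chd8 KO against WT, 16 of 20 p53 target genes rose and 0 fell, with summed levels of 1692 to 2238 TPM against 657 to 717 TPM in WT, 632 to 649 TPM in P53 KO and 692 to 789 TPM in DKO. In the same comparison 10 of 14 lymphoid priming genes fell (688 to 822 TPM against 1336 to 2007 TPM), as did 8 of 11 tested B cell genes (45.6 to 55.3 TPM against 174 to 500 TPM), 6 of 14 erythroid genes (149 to 236 TPM against 620 to 1114 TPM), and 6 of 10 mast cell, basophil and eosinophil genes, 1 of which rose (163 to 208 TPM against 955 to 2225 TPM). Of 11 tested macrophage and dendritic cell genes 3 fell (101 to 448 TPM against 563 to 689 TPM), as did 2 of 8 megakaryocyte genes (123 to 160 TPM against 204 to 294 TPM), and 0 of 9 tested neutrophil and monocyte genes were called by limma. Of the 17 LSK gate and stem cell markers 6 rose and 2 fell, with a median of 0.41 (1959 to 2177 TPM against 1565 to 1838 TPM). S phase genes summed to 4176 to 4538 TPM in Chd8 KO and 3977 to 4076 TPM in WT, and to 3229 to 3932 TPM in P53 KO and 3502 to 3878 TPM in DKO, with 2 of 28 higher and 1 lower in Chd8 KO against WT. Of 8 tested T and NK cell genes 5 fell in Chd8 KO against WT (sums of 164 to 211 TPM against 184 to 199 TPM). Lymphoid priming genes summed to 1617 to 1737 TPM in P53 KO and 1534 to 1712 TPM in DKO, B cell genes to 71.7 to 398 TPM and 162 to 482 TPM, and erythroid genes to 342 to 1842 TPM and 897 to 1891 TPM. In DKO against Chd8 KO, 14 of 14 erythroid, 7 of 14 lymphoid priming and 6 of 11 tested B cell genes rose and 0 fell. In that comparison 16 of 20 p53 target genes fell and 0 rose, and 10.5% of all genes were called. No list had all its genes at 0, and the part of these cell types and states in the changes of Aebp2, Dpy30, Kdm5b, Ezh1 and Phf19 was not tested. In bulk RNA of a sorted gate, fewer cells of a type and less RNA per cell cannot be told apart.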

How the data were processed

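The authors deposited 1 table of transcript TPM for each of the 12 RNA libraries. Tools named in the submitters' processing notes include STAR 2.6.1e, featureCounts 1.6.2, Trim Galore 0.4.2 and FastQC 0.11.7, with GRCm38 (mm10), but which of them gave the TPM was not given in the sources used here. The division of reads shared between paralogs was not given either, so Rbbp4 and Rbbp7, Kdm6a and Uty, and Kdm5c and Kdm5d are uncertain in their split. Each deposited library's TPM sum to 1000000, so depth is unknown and no counting error is given. The 4 ATAC-seq and 6 CUT&RUN samples were not analysed here.

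Transcript TPM were summed by gene symbol over 105129 transcripts. Genes and transcripts with a mean of at least 1 TPM were log2-transformed with a pseudocount of 1 and fitted in limma 3.58.1 (R 4.3.3; lmFit, contrasts.fit, eBayes with a trend). The model had a mean for each genotype and 8 residual degrees of freedom, and was tested on simulated data first. All p-values are two-sided and adjusted by Benjamini and Hochberg's method over all 13162 genes or 38181 transcripts. Fold changes on this scale understate those of low genes.

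The members, the lists and the tests were chosen with earlier results of these data known. Values per library are given for called members and for Kmt2a, Kmt2d, Setd1a, Wdr5, Rbbp5, Ash2l, Ezh1, Ezh2, Eed and Suz12, and of the other lists called genes are named, except 1 result that is not reported here. Counts and medians describe the lists, with no set test. Promoter windows are from RefSeq (GRCm38.p6), and elements were searched on both strands without overlap between the kinds marked. Alternatives changed 1 choice at a time: pseudocount (0.1, 0.5), filter (none, 5 TPM), scaling (median-of-ratios, quantile, TPM rescaled after dropping mitochondrial genes and the top 20), only the groups compared, a replicate block, run as a covariate, the first run only, Y-linked level as a covariate, the most abundant transcript, and each library left out in turn. Some of these were run on genes only, which left 19 for transcripts. They were quantile scaling, rescaled TPM, only the groups compared, run or Y-linked level as a covariate, and the most abundant transcript. Tables and figures were made in Python 3.11.15 with pandas 2.3.3, numpy 2.4.6 and matplotlib 3.10.9.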

Additional observations from a re-analysis of the deposited data

How the results depend on the processing

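Counts of members called are given as the value under an alternative against the reported one. Calls over all genes moved much under some alternatives and little under others. With the most abundant transcript they were 1385 higher and 778 lower in Chd8 KO against WT, against 1270 and 919 as reported. In DKO against WT they went from 455 and 233 to 417 and 217 with it. Under median-of-ratios scaling, DKO against Chd8 KO went from 832 and 554 to 742 and 831. Whether the shifts were particular to the members was not tested. With run as a covariate, calls over all genes went from 1270 higher and 919 lower to 1712 and 1153 in Chd8 KO against WT. In DKO against P53 KO they went from 1471 and 486 to 183 and 127. With the Y-linked covariate, DKO against Chd8 KO went from 832 and 554 to 90 and 95. In Chd8 KO against WT the 3 calls became 8 with the most abundant transcript, 8 in the first run alone and 5 with run as a covariate. In DKO against Chd8 KO the 3 became 0 with the Y-linked covariate, 7 under median-of-ratios scaling, 8 with only the groups compared, 5 under quantile normalization and 6 in the first run alone. In DKO against P53 KO the 2 became 5 with the most abundant transcript, 6 with TPM rescaled without mitochondrial and top genes, 1 with no filter, and 0 with only the groups compared, in the first run alone or with run as a covariate. In DKO against WT the 1 became 0 with the Y-linked covariate and 3 with the most abundant transcript. With each library left out in turn, members called ranged from 1 to 5 in Chd8 KO against WT, 1 to 5 in DKO against Chd8 KO, 1 to 5 in DKO against P53 KO, 0 to 1 in DKO against WT, 0 to 2 in P53 KO against WT and 0 to 2 in the interaction.

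Member transcripts called in Chd8 KO against WT went from 3 to 5 with a mean of at least 5 TPM and to 7 in the first run alone. In DKO against Chd8 KO they went from 1 to 2 under median-of-ratios scaling or with no filter, and to 3 in the first run alone. In DKO against P53 KO they went from 5 to 11 with a mean of at least 5 TPM, 3 under median-of-ratios scaling and 0 in the first run alone. In DKO against WT they went from 2 to 1 under median-of-ratios scaling, with no filter, with a pseudocount of 0.1 or 0.5, or with a replicate block. With each library left out they ranged from 1 to 9 in Chd8 KO against WT, 0 to 1 in DKO against Chd8 KO, 1 to 22 in DKO against P53 KO, 0 to 3 in DKO against WT, 0 to 18 in P53 KO against WT and 0 to 12 in the interaction. The 22 came without P53 KO replicate 3, where calls over all transcripts went from 1065 higher and 472 lower to 3803 and 1828. Setd1a in Chd8 KO against WT turned to -0.10 with the most abundant transcript. Across all genes, DKO against P53 KO gave 1471 higher and 486 lower calls, and 558 and 756 under median-of-ratios scaling. In Chd8 KO against WT the same split went from 1270 and 919 to 1038 and 1144.

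No pairing of samples by replicate number was seen. Same-numbered libraries of different genotypes had correlations of their deviations from -0.25 to 0.12 (median -0.0042), and 1 of 18 was over 0.1. For different numbers they ran from -0.22 to 0.24 (median 0.024), and 4 of 36 were over 0.1. The deviations are from means of 3 libraries, so these correlations cannot exclude a pairing. With the replicate block, members called in DKO against P53 KO went from 2 to 1, and the Aebp2 call in DKO against Chd8 KO was lost (adjusted p = 0.0516). The other causes of these shifts were not tested.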

Other observations

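The transcripts of several members had their own pattern in the libraries of the second run, P53 KO replicates 1 and 2. Mtf2 ENSMUST00000081567.10, the most abundant transcript of this PRC2.1 subunit, measured 1.97 and 3.09 TPM there, 25.3 TPM in P53 KO replicate 3 and 17.4 to 38.8 TPM in the other 9 libraries. Rbbp4 ENSMUST00000140291.1 measured 29.0 and 35.5 TPM against 70.6 to 111 TPM in the other 10. Rbbp7 moved in opposite directions by transcript, with ENSMUST00000033720.11 at 49.9 and 51.3 TPM against 81.9 to 132 TPM elsewhere, and ENSMUST00000112326.7 at 105 and 128 TPM against 47.8 to 81.1 TPM. Suz12 ENSMUST00000017692.14 measured 24.3 and 34.3 TPM against 55.0 to 65.9 TPM elsewhere. Of the 154 member transcripts, 15 lay below and 13 above the range of the other 10 libraries in both libraries of the second run, or 18.2%, against 18.1% of all 38181 transcripts. For the 32 genes it was 3 below and 1 above, or 12.5%, against 18.4% of all genes. Both libraries belong to P53 KO, so run and genotype cannot be told apart for them, apart from P53 KO replicate 3, whose values are given above.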
